A study of Mus musculus with 8 samples.

Results

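The genes described here are those of the oncostatin M receptor, its transducer and acute-phase target proteins. They are the rows of the table whose symbol is *Osmr*, *Il6st*, *Stat3*, *Socs3*, *Lcn2*, *Saa1*, *Saa2*, *Saa3*, *Lbp* or *Orm1*, 10 of 23471 rows. They were chosen by name and not by a cut on values, but with earlier results of these data known. All 10 averaged 1 RPKM or more, the limit for entering the tests, as did 13421 genes in all. RNA was sequenced from cultures of hepatoblasts, the fetal liver cells that can become hepatocytes or biliary epithelial cells (BECs), taken from livers at E14.5 of mice on a B6;129 mixed background. Control cells carry the genotype label wild type, and L1L2_Alb cells the label Lats1-/-;Lats2f/fl;Alb-cre, in which *Lats1* is missing from every cell and *Lats2* is removed by Cre recombinase under the albumin promoter, and therefore only in cells in which that promoter has been active. The cultures were undifferentiated (iHB, 1 control and 1 L1L2_Alb library), differentiated to hepatocytes with 12.5 ng/ml oncostatin M for 5 days by the labels (iHP, 1 control and 2 L1L2_Alb libraries), or differentiated to BECs on Matrigel for 14 days (iBEC, 1 control and 2 L1L2_Alb libraries).

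The liver was dissociated, red cells were lysed and the remaining cells were plated with no sort, so other liver and blood cells could be carried into the cultures. By the methods of the study, the culture medium held serum, epidermal growth factor, hepatocyte growth factor, insulin and dexamethasone, in control and L1L2_Alb cells alike. Separate embryos are not stated in the labels for libraries of the same condition, so the p-values measure the spread between these libraries, which may be technical. In the fit with stage and genotype as terms, that spread also holds any change of the genotype difference between stages. Stage stands for everything that differed between the cultures (time, surface and oncostatin M), and these cannot be told apart.

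Oncostatin M is a cytokine of the interleukin-6 family that blood cells of the fetal liver make, and it is used to mature fetal hepatocytes in culture. It binds a receptor made of OSMR and gp130, the product of *Il6st*, and bound JAK kinases then phosphorylate STAT3, which enters the nucleus and switches on its targets. One of the first of these is *Socs3*, whose protein shuts the receptor off again. In hepatocytes STAT3, together with C/EBP factors and NF-kB, drives the acute-phase response, in which the liver secretes proteins such as serum amyloid A (*Saa1*, *Saa2*), lipocalin 2 (*Lcn2*), orosomucoid (*Orm1*) and lipopolysaccharide-binding protein (*Lbp*). *Saa3* is made mainly outside hepatocytes, in macrophages and other cells.

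The proximal promoters shown are those of the members whose window held a STAT or C/EBP match. The windows of *Osmr*, *Il6st* and *Stat3* held neither and are not shown. The RefSeq table (mouse build GRCm38.p6) held windows for 8 of the 10 genes, and *Lbp* and *Orm1* had no entry. Each run is the 250 bases that end just before the annotated start, 5′ to 3′ on the strand of the gene, and capitals mark a match to TTCNNNGAA, the spaced palindrome that STAT proteins bind, or to the C/EBP motif TTGCNNAA, both searched on both strands. *Socs3* lies at chr11:117969367-117969616 on the minus strand, *Lcn2* at chr2:32387740-32387989 on the minus strand, *Saa1* at chr7:46742981-46743230 on the minus strand, *Saa2* at chr7:46751583-46751832 on the plus strand and *Saa3* at chr7:46715677-46715926 on the minus strand.
Socs3: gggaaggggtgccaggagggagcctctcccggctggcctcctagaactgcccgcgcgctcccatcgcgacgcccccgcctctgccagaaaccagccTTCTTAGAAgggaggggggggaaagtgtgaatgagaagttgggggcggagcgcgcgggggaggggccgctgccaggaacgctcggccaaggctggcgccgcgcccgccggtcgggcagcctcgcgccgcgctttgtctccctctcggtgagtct
Lcn2: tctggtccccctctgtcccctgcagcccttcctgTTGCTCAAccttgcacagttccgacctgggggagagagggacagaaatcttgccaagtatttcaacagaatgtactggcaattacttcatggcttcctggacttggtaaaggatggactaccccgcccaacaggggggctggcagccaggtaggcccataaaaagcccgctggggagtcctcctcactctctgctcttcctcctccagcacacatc
Saa1: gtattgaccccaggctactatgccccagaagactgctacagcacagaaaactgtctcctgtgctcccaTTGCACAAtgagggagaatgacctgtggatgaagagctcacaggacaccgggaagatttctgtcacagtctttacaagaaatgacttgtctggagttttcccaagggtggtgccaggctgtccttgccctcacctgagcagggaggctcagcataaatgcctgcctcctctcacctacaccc
Saa2: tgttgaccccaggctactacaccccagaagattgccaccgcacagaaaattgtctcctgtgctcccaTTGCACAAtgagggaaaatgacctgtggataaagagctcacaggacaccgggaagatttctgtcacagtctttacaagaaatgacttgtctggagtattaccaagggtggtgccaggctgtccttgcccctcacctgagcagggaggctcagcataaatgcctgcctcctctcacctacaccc
Saa3: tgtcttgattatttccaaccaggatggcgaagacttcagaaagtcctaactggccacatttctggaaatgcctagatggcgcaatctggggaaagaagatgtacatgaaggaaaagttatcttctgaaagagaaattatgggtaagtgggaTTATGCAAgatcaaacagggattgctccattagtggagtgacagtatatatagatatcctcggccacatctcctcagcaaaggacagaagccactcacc

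The *Socs3* window held the site TTCTTAGAA, whose first base was 154 bases before the start, and it was the only one of the 8 windows with TTCNNNGAA, a motif found in 7.02% of 32851 promoter windows of that length. The narrower STAT3 motif TTCCNGGAA, every match of which is also a match of the wider one, was found in 0.913% of all windows and in 0 of the 8. The C/EBP motif was found in 4 of the 8 windows and in 9.56% of all. It read TTGCTCAA in *Lcn2* at -216, TTGCACAA in *Saa1* at -182 and in *Saa2* at -183, and TTATGCAA, a match on the other strand, in *Saa3* at -99. The NF-kB consensus was in 0 of the 8 windows and in 3.90% of all. The *Saa1* and *Saa2* windows were 94.8% identical when aligned, whereas *Saa1* and *Saa3* shared 52.2%. These matches describe letters in a window, and no binding was measured.

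Library depth was 18436865 to 33229075 reads, as recovered from the steps in which the values of short genes change. The libraries differed in markers of other cells. Summed RNA of 7 neutrophil markers (*Ngp*, *Camp*, *Ltf*, *Mpo*, *Elane*, *S100a8*, *S100a9*) was 14511 RPKM in control iHB and 9844 RPKM in control iHP, but 458 and 43.8 RPKM in L1L2_Alb iHP 1 and 2 and 105 RPKM in L1L2_Alb iBEC 1. RPKM is the number of reads of a gene scaled for its length and for the depth of the library. Of these markers *Elane* was at 0 in L1L2_Alb iHP 2. Macrophage markers (8 genes) summed to between 813 and 3209.8 RPKM, and of them *Clec4f* was at 0 in 2 libraries. Mesenchymal markers (8 genes) summed to 3941 RPKM in control and 1247 RPKM in L1L2_Alb iHB. In iHP the sum was 2441 RPKM (control) against 664 and 1041 RPKM (L1L2_Alb), and in iBEC 2554 RPKM against 3591 and 1605 RPKM. All 8 had a negative genotype difference, and 0 passed. Hepatocyte markers (8 genes) summed to between 10803 and 37208 RPKM, and the control library was the highest in each stage. In control cells *Krt7* went against the label BEC, at 62.3 RPKM in iBEC against 399.6 RPKM in iHB, while *Alb* was at 6162 against 2485 RPKM. The median log2 difference of the 6 biliary markers from iHB of the same genotype was -1.43 in control iBEC. It was 0.11 and 0.12 in L1L2_Alb iBEC 1 and 2. The biliary sum was highest in control iBEC, at 23443 RPKM, of which *Spp1* made 23271 RPKM. *Lats1* and *Lats2* RNA was not lower in the L1L2_Alb libraries (log2 differences of 0.44 and 0.90), and a value per gene includes exons outside the deleted part, so this checks no label. Upper-quartile scaling moved the median difference of all genes from 0.06 to -0.07 between the genotypes, from -0.15 to -0.02 for iHP against iHB and from -0.25 to 0.01 for iBEC against iHB.

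*Osmr*, the specific chain of the receptor, held 14.2 RPKM in control and 10.7 RPKM in L1L2_Alb iHB. With oncostatin M it was 26.8 RPKM (control) against 45.4 and 33.2 RPKM (L1L2_Alb), and on Matrigel 33.7 RPKM (control) against 58.5 and 37.1 RPKM (L1L2_Alb). All iHP and iBEC values thus lay above both iHB values, and the iHP and iBEC ranges overlapped. The ratio of iHP to the iHB of the same genotype was 1.89 in control cells and 4.23 and 3.09 in L1L2_Alb cells. Among all genes tested, 3.12% had all 3 iHP libraries above both iHB libraries, and among the 10 genes these were *Osmr*, *Il6st*, *Socs3* and *Orm1*. All 3 iBEC libraries lay above both iHB libraries for 9.86% of genes, and among the 10 for these 4 and *Saa1* and *Saa2*.

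*Il6st*, which encodes the shared transducer gp130, had the same order of iHB below iHP and iBEC over a smaller range. It was at 48.6 and 45.1 RPKM in control and L1L2_Alb iHB, at 74.5 RPKM in the control iHP library and 70.3 and 77.5 RPKM in the L1L2_Alb ones. In iBEC it was 62.9 RPKM (control) against 96.7 and 66.4 RPKM (L1L2_Alb). The 3 iHP libraries lay close together and above both iHB libraries whatever the genotype, with ratios between 1.53 and 1.72. *Osmr* reached 0.238 to 0.292 of the *Il6st* level in iHB, 0.36 to 0.645 in iHP and 0.536 to 0.605 in iBEC, on the RPKM scale.

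*Stat3* was the steadiest of the 10 genes, with a highest to lowest ratio of 1.47. Control cells held 72.0, 75.9 and 82.0 RPKM in iHB, iHP and iBEC. L1L2_Alb cells held 59.4 RPKM in iHB, 83.6 and 56.9 RPKM in iHP and 63.0 and 70.2 RPKM in iBEC. The 2 L1L2_Alb iHP libraries were the highest and the lowest of all 8, so no stage or genotype stood apart. The fitted difference was 0.16 on the log2(RPKM + 1) scale for iHP and for iBEC against iHB (standard error 0.222 for each), and -0.23 between the genotypes (standard error 0.178).

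*Socs3*, the feedback inhibitor with the TTCTTAGAA site shown above, held 27.5 RPKM in control and 25.3 RPKM in L1L2_Alb iHB. In the cells given oncostatin M it was 63.7 RPKM (control) against 110.4 and 91.3 RPKM (L1L2_Alb). In iBEC, which were not given oncostatin M by the labels, it was 115 RPKM (control) against 84.4 and 108 RPKM (L1L2_Alb). The iHB pair stood well below the other 6 libraries, and iHP and iBEC overlapped. The ratio of iHP to iHB was 2.32 in control cells and 4.36 and 3.61 in L1L2_Alb cells, and that of iBEC to iHB was 4.19 in control cells and 3.34 and 4.25 in L1L2_Alb cells.

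**Figure D1:**
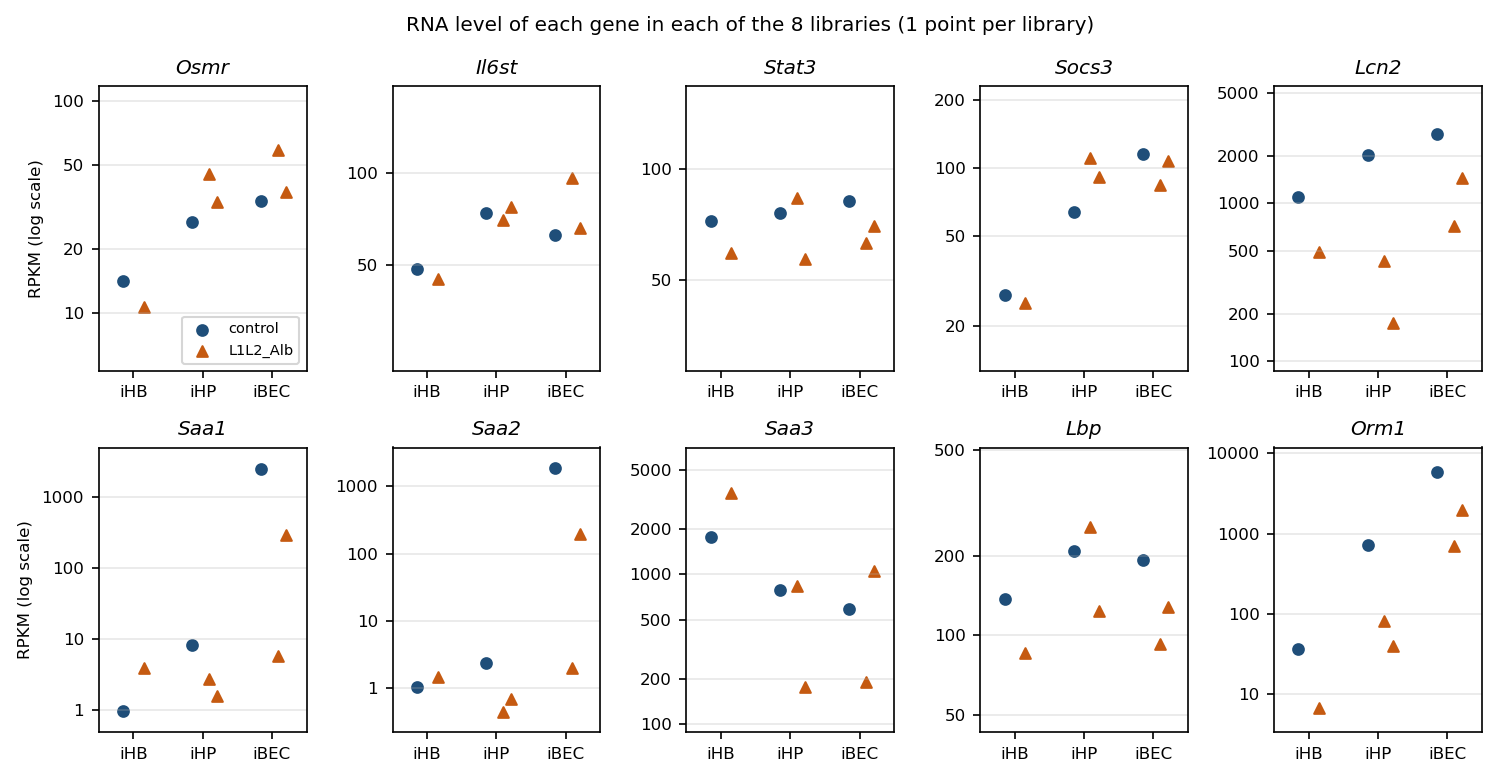
RNA level of the 10 genes in RPKM on a log axis (each panel has its own range) against the culture stage, with 1 point per library and circles for control and triangles for L1L2_Alb cells. *Osmr* and *Socs3* lie lowest in the 2 iHB libraries, *Stat3* stays between 56.9 and 83.6 RPKM, and *Saa1*, *Saa2* and *Orm1* are highest in control iBEC.

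The first question was whether the cells given oncostatin M showed the response. In the fit with stage and genotype as terms, which uses all 8 libraries, 0 of 13421 genes (0%) passed an adjusted p of 0.05 in limma for iHP against iHB, and 1158 had an unadjusted p under 0.05. The smallest adjusted p of any gene was 0.0741. The fitted log2 difference was 1.66 for *Socs3* (standard error 0.272, adjusted p = 0.152), 1.36 for *Osmr* (0.303, adjusted p = 0.362) and 0.63 for *Il6st* (0.234, adjusted p = 0.488). Without the control iHP library the difference of *Socs3* was 1.99 with an adjusted p of 0.0466. The receptor and its inhibitor were thus higher in every iHP library, and no member passed the test of this comparison with all libraries.

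Against the same 2 iHB libraries, iBEC differed in 768 genes (5.72% of those tested), 395 higher (2.94%) and 373 lower (2.78%). Of the receptor and signalling members, *Socs3* rose by 1.89 on the log2 scale (standard error 0.272, adjusted p = 0.0068) and *Osmr* by 1.64 (0.303, adjusted p = 0.0197). *Il6st* differed by 0.63 (adjusted p = 0.152) and *Stat3* by 0.16 (adjusted p = 0.671). Both calls rest on the pair of iHB libraries. Without L1L2_Alb iHB the adjusted p was 0.16 for *Socs3* and 0.34 for *Osmr*, and without control iHB it was 0.0616 and 0.0535. With no filter on low values that of *Osmr* was 0.0509. With L1L2_Alb iHP 2 and iBEC 1, the libraries lowest in neutrophil markers, left out together, *Socs3* rose by 2.04 (adjusted p = 0.0135) and *Osmr* by 1.45 (adjusted p = 0.0379).

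The other parts of the pathway were compared as lists. Of 6 receptor chains of the family 1 passed between the genotypes, against 9.57% of all genes. *Cntfr*, the receptor of ciliary neurotrophic factor, was higher in L1L2_Alb cells by 2.39 (adjusted p = 0.00138), at 8.56 to 18.3 RPKM against 1.43 to 1.87 RPKM in control cells, whereas *Lifr* (-0.07, adjusted p = 0.931) and *Il6ra* (-0.74, adjusted p = 0.205) did not pass. Of the ligands, *Clcf1*, which encodes a cytokine that signals through CNTFR, was the most abundant, at 20.7, 27.5 and 21.0 RPKM in control iHB, iHP and iBEC and at 5.28 to 18.4 RPKM in L1L2_Alb cells (genotype difference -1.001, adjusted p = 0.105). *Osm* itself was at 0.369 to 2.29 RPKM and *Il6* at 0.656 to 6.26 RPKM, *Lif* at 1.97 to 8.36 RPKM, *Il11* stayed under 1 RPKM and was not tested, and 0 of the 4 ligands tested passed in any comparison. Recombinant oncostatin M added to the medium leaves no RNA of its own.

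Among 19 JAK kinases, STATs and inhibitors, 0 passed for iHP against iHB. *Jak1*, *Jak2* and *Tyk2*, the kinases bound to gp130, had log2 differences of 0.09, 0.18 and -0.21 for iHP against iHB. *Stat5b*, another STAT factor, had -0.27 (adjusted p = 0.811). For iBEC against iHB, 2 of the 19 passed, against 5.72% of all genes. They were *Socs3* and *Cish*, another SOCS-family inhibitor, which fell by 1.45 (adjusted p = 0.0471 in limma). Between the genotypes 1 of the 19 passed, against 9.57% of all genes tested. It was *Stat2* of the interferon pathway, lower by 0.72 in L1L2_Alb cells (adjusted p = 0.0402).

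Of 14 genes listed as STAT3 targets among transcription factors and survival genes, *Socs3* included, 0 passed for iHP against iHB and 6 of 14 were higher, with a median of -0.10 against -0.15 over all genes. For iBEC against iHB 4 of 14 passed, all higher, where 2.94% of all genes passed as higher. They were *Socs3*, *Timp1* (2.81, adjusted p = 0.00218), which encodes an inhibitor of matrix metalloproteinases, *Egr1* (2.51, adjusted p = 0.0302), an immediate early transcription factor, and *Cebpd* (1.36, adjusted p = 0.0261), a C/EBP factor of the acute-phase response. *Timp1* was at 224 and 171 RPKM in iHB, at 469, 661 and 909 RPKM in iHP and at 1268, 1507 and 1494 RPKM in iBEC. *Cebpb*, its relative, differed by 0.32 (adjusted p = 0.429). Between the genotypes *Fos* (1.42, adjusted p = 0.0055) and *Bcl2l1* (0.88, adjusted p = 0.0378), which encodes the survival protein BCL-XL, were higher in L1L2_Alb cells, 2 of 14 where 6.2% of all genes passed as higher.

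**Figure D2:**
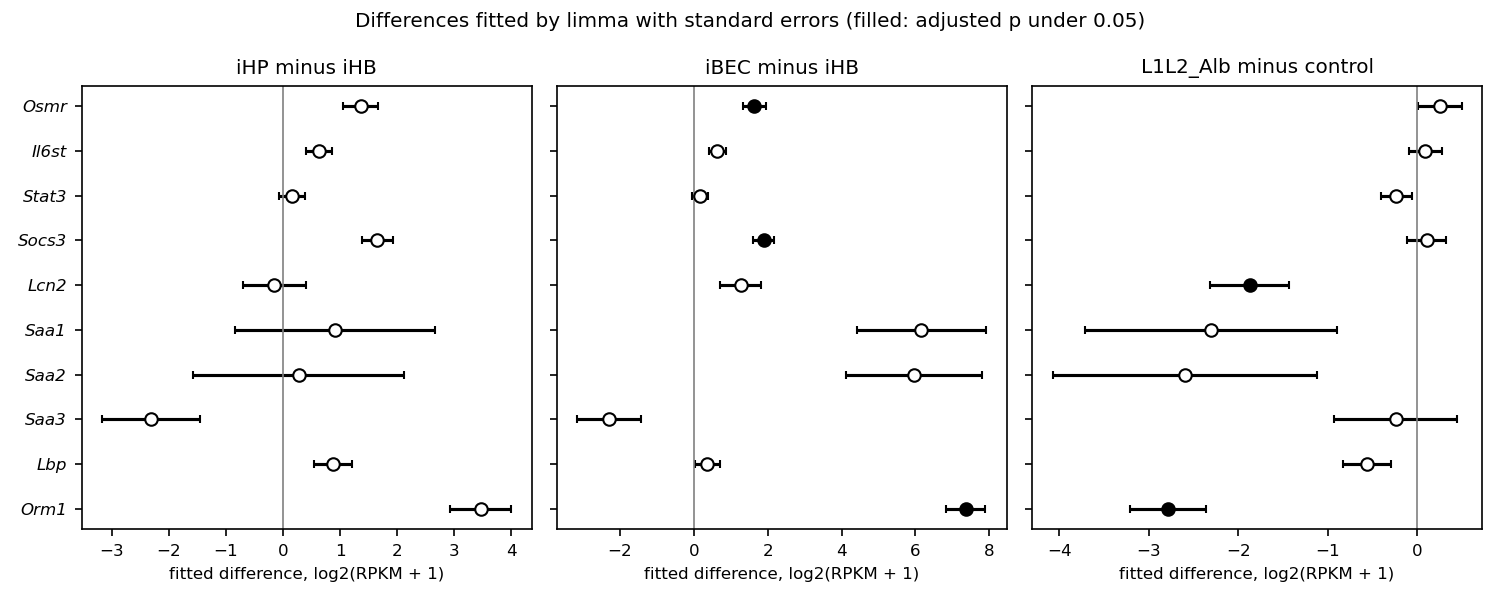
Fitted log2(RPKM + 1) differences of the 10 genes with standard errors for iHP minus iHB, iBEC minus iHB and L1L2_Alb minus control, where filled points passed an adjusted p of 0.05 in limma over 13421 genes. *Osmr*, *Socs3* and *Orm1* are filled for iBEC, *Lcn2* and *Orm1* for genotype, and no point is filled for iHP.

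*Orm1*, which encodes the carrier protein alpha-1-acid glycoprotein, had the widest called changes of the acute-phase members. It held 36.4 RPKM in control and 6.72 RPKM in L1L2_Alb iHB. In iHP it was 729 RPKM (control) against 82.8 and 40.02 RPKM (L1L2_Alb), and in iBEC 5934 RPKM (control) against 707 and 1996 RPKM (L1L2_Alb). Within each genotype the levels rose from iHB to iHP to iBEC, an order whose share over all genes was not counted. In each stage every L1L2_Alb library was below its control, as in 10.1% of all genes. L1L2_Alb iHP 2, however, was only just above control iHB.

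For iBEC against iHB *Orm1* rose by 7.37 on the log2 scale (standard error 0.532, adjusted p = 0.000612), and it passed under all 14 alternatives that gave a value. For iHP against iHB the difference was 3.46 (0.532, adjusted p = 0.123). In L1L2_Alb cells alone, where 492 genes (3.67%) differed between iBEC and iHP, 424 of them higher in iBEC (3.16%) and 68 lower (0.507%), *Orm1* was higher in iBEC by 4.34 (standard error 0.565, adjusted p = 0.0147). That call was lost when either L1L2_Alb iHP library (adjusted p = 0.0842 and 0.087) or L1L2_Alb iBEC 2 (0.0531) was left out, and with no filter on low values (0.184). In the same comparison *Osmr* differed by 0.26 (standard error 0.337), *Socs3* by -0.07 and *Lcn2* by 1.89 (adjusted p = 0.126), so that of the 10 genes only *Orm1* passed.

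Between the genotypes, 1284 genes differed (9.57%), 832 higher (6.2%) and 452 lower (3.37%) in L1L2_Alb cells. *Orm1* was lower by 2.79 (standard error 0.426, adjusted p = 0.00842), a fold of 6.9 on the log2(RPKM + 1) scale, and was below the control of its stage in 5 of 5 L1L2_Alb libraries. Without control iHP its adjusted p was 0.0602, and without the iHP stage 0.0818. *Lcn2*, an iron-siderophore binding protein that hepatocytes secrete and that neutrophils store in granules, was lower by 1.87 (standard error 0.438, adjusted p = 0.0349), also in 5 of 5 libraries. Over all genes, 10.1% were below the control in 5 of 5 libraries. None of the 10 genes was above it in 5 of 5 (0 of 10, against 22.9% of all genes) or had all 5 L1L2_Alb libraries below all 3 control libraries (0 of 10, against 3.7%).

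*Lcn2* was at 1093, 2011 and 2763 RPKM in control iHB, iHP and iBEC. In L1L2_Alb cells it was at 495 RPKM in iHB, at 434 and 174 RPKM in iHP and at 720.1 and 1454 RPKM in iBEC. In control cells it was thus higher in iHP than in iHB by a ratio of 1.84, whereas in L1L2_Alb cells the 2 ratios were 0.877 and 0.351. L1L2_Alb iBEC 2 lay above control iHB, so the genotypes overlapped across stages.

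The *Lcn2* call was the less stable of the pair. Its adjusted p exceeded 0.05 with no filter on low values (0.0962) and without control iHB (0.0885), L1L2_Alb iHB (0.0903), control iHP (0.26), L1L2_Alb iHP 1 (0.0565) or L1L2_Alb iBEC 1 (0.0571), and without any 1 of the stages (0.055 to 0.158), while its direction held in all 17 alternatives. The summed neutrophil markers were also below the control of their stage in 5 of 5 L1L2_Alb libraries, in iHP at 458 and 43.8 against 9844 RPKM. All 7 neutrophil markers had a negative genotype difference, with a median of -3.62, and 0 of the 7 passed. Their part in the *Lcn2* difference was not tested. With L1L2_Alb iHP 2 and iBEC 1 left out together, *Lcn2* was lower by 1.42 (adjusted p = 0.0405) and *Orm1* by 2.32 (adjusted p = 0.0121). In these bulk samples fewer cells of a type and less RNA per cell cannot be told apart.

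**Figure D3:**
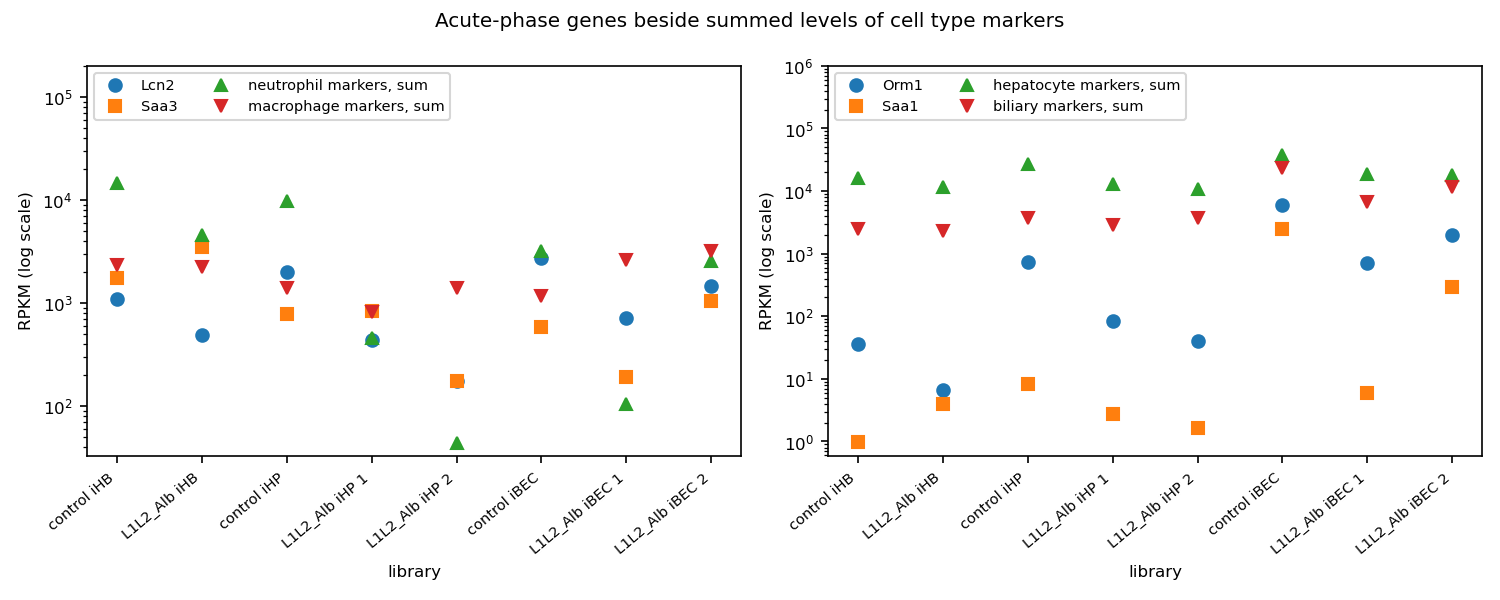
RNA level in RPKM on a log axis in each of the 8 libraries, with *Lcn2* and *Saa3* beside the summed neutrophil and macrophage markers on the left, and *Orm1* and *Saa1* beside the summed hepatocyte and biliary markers on the right. Neutrophil markers fall from 14511 RPKM in control iHB to 43.8 RPKM in L1L2_Alb iHP 2, and *Saa1* spans 0.984 to 2472 RPKM while the hepatocyte sum spans 10803 to 37208 RPKM.

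*Saa1*, the main circulating serum amyloid A, was under 10 RPKM in 6 of the 8 libraries. It was at 0.984 and 3.90 RPKM in control and L1L2_Alb iHB, which are 17 and 68 reads, and at 8.24 RPKM in control iHP. L1L2_Alb iHP held 2.77 and 1.62 RPKM, or 31 and 21 reads. In control iBEC it reached 2472 RPKM (49864 reads), against 5.92 and 295 RPKM in L1L2_Alb iBEC. The L1L2_Alb iBEC libraries thus lay far apart, and of them only iBEC 2 was well above the iHB libraries.

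*Saa2*, its close paralog, had the same order at the top. Control iBEC held 1871 RPKM, L1L2_Alb iBEC 2 held 195 RPKM and L1L2_Alb iBEC 1 held 2.03 RPKM. The other 5 libraries held 0.445 to 2.34 RPKM, or 5 to 40 reads. The annotated transcripts of both genes (GENCODE) were 93.9% identical and 13.3% of the 50-base windows of *Saa2* were found whole in *Saa1*, so part of the reads could have gone to either gene and the split between them is uncertain. The ratio of *Saa1* to *Saa2* was 1.32 in control iBEC and 1.51 in L1L2_Alb iBEC 2, the libraries with 2840 or more reads of each.

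With that spread, the fitted difference of iBEC against iHB was 6.17 for *Saa1* (standard error 1.76, adjusted p = 0.0868) and 5.96 for *Saa2* (1.85, adjusted p = 0.105), and neither passed. Without L1L2_Alb iBEC 1 they were 8.10 (adjusted p = 0.0032) and 8.07 (adjusted p = 0.0016). For iHP against iHB they were 0.91 (adjusted p = 0.915) and 0.27 (adjusted p = 0.979). The level in control iHP was 8.37 times that of control iHB for *Saa1* and 2.26 times for *Saa2*, and the ratios in L1L2_Alb cells were 0.71 and 0.416 for *Saa1* and 0.299 and 0.466 for *Saa2*. The groups of iHP and iHB overlapped for each gene. In L1L2_Alb cells alone, iBEC against iHP gave 3.85 for *Saa1* (adjusted p = 0.213) and 3.96 for *Saa2* (adjusted p = 0.245). Without L1L2_Alb iBEC 1 these were 6.55 and 6.97, with 1 library left in the L1L2_Alb iBEC group and so no spread of its own.

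*Saa3* ran the other way. It held 1766 RPKM in control and 3516 RPKM in L1L2_Alb iHB, which were the highest values. In iHP it was 787 RPKM (control) against 837 and 177 RPKM (L1L2_Alb), and in iBEC 586 RPKM (control) against 192 and 1054 RPKM (L1L2_Alb). It was therefore the most abundant of the serum amyloid A genes per length in all libraries but control iBEC, where it was at 0.237 of *Saa1*.

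*Saa3* was below both iHB libraries in all 3 iHP and all 3 iBEC libraries, an arrangement seen in 12.7% and 33.2% of all genes. The fitted difference was -2.31 for iHP (standard error 0.857, adjusted p = 0.488) and -2.30 for iBEC (0.857, adjusted p = 0.154), and between the genotypes -0.24 (0.687, adjusted p = 0.866). *Saa3* was lowest in L1L2_Alb iHP 2 and iBEC 1, the libraries in which the neutrophil markers summed to 43.8 and 105 RPKM. Over the 8 libraries its correlation with the neutrophil sum was r = 0.814 and with the macrophage sum r = 0.189, given as a description of libraries that share stage and genotype. In iBEC the neutrophil sum was 3189, 105 and 2576 RPKM and the macrophage sum 1179.7, 2595 and 3209.8 RPKM in the control and L1L2_Alb 1 and 2. All 7 neutrophil markers had a negative difference for iHP and for iBEC against iHB, and 0 of the 7 passed. All 7 macrophage markers tested had a negative difference for iHP against iHB (median -1.03) and 4 of 7 a positive one for iBEC against iHB. With L1L2_Alb iHP 2 and iBEC 1 left out together, a choice made after seeing the data, *Saa3* had a difference of -1.66 for iBEC against iHB. Because the libraries removed were its 2 lowest, a p from that fit would understate its spread and is not given. The part of neutrophils and macrophages in the *Saa3* levels was not tested.

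*Lbp*, whose protein carries bacterial lipopolysaccharide to CD14, stayed within a ratio of 2.98. It was at 137 and 86.0 RPKM in control and L1L2_Alb iHB, at 208, 256 and 123 RPKM in control iHP and L1L2_Alb iHP 1 and 2, and at 193, 92.3 and 128 RPKM in control iBEC and L1L2_Alb iBEC 1 and 2. Each iHP library was above the iHB library of its genotype, with ratios of 1.52, 2.98 and 1.44, although L1L2_Alb iHP 2 lay below control iHB. The fitted differences were 0.88 for iHP (standard error 0.338, adjusted p = 0.511), 0.37 for iBEC (0.338, adjusted p = 0.511) and -0.56 for genotype (0.271, adjusted p = 0.237).

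The 25 other genes of a list of positive acute-phase proteins gave the setting of these values. As a class these proteins rise in the blood in inflammation, but whether each listed gene does so in mice was not tested. For iHP against iHB, 0 of the 25 passed and 24 of 25 were higher, with a median of 2.00 on the log2 scale against -0.15 over all genes. The fibrinogen chains *Fga*, *Fgb* and *Fgg*, the clotting proteins known as targets of this cytokine family, had differences of 2.88, 3.08 and 3.14, each with an adjusted p of 0.0741. *A2m* (2.75) had the same adjusted p and *Serpina3n*, a protease inhibitor, had 3.76 with an adjusted p of 0.123. *Hp* (haptoglobin, 1.30), *Apcs* (serum amyloid P, 2.498) and *Crp* (C-reactive protein, 2.73) were also higher, while *Hamp*, the iron hormone hepcidin, differed by 0.81 (adjusted p = 0.683). Of all 31 genes of the list, members included, 11 passed as higher when control iBEC was left out and 4 without control iHP. Upper-quartile scaling gave 3, and a filter at 5 RPKM gave 3 of the 30 it left. Over all genes, 27, 15, 4 and 4 passed as higher in these settings, and 2, 40, 0 and 0 as lower.

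For iBEC against iHB, 18 of the 25 passed and all 18 rose, where 2.94% of all genes passed as higher. The median of the 25 was 4.02 against -0.25 over all genes. Of the 8 hepatocyte markers 7 were also higher in iBEC (median 1.98) and 5 passed as higher. The part of hepatocyte content in the rise of the list was not tested. The largest were *Orm2* (7.93, adjusted p = 0.000686), *Orm3* (7.26, adjusted p = 0.0367, at 1396, 5.95 and 552 RPKM in control iBEC and L1L2_Alb iBEC 1 and 2) and *Serpina3n* (6.97, adjusted p = 0.0009), and *Saa4*, which is less inducible than *Saa1*, rose by 4.13 (adjusted p = 0.0312). *Orm2* and *Orm3* transcripts were 91.0% and 86.4% identical to *Orm1*, so the split of reads between them is uncertain. *Fgb* rose by 3.40 (adjusted p = 0.00275), from 2030.0 and 408 RPKM in iHB to 15089, 5018 and 6909 RPKM in iBEC. Of all 31 genes of the list, 28 were higher and 19 passed as higher. Without L1L2_Alb iHB, which leaves 1 iHB library, fewer passed and the median was 3.77 in place of 4.02.

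The negative acute-phase proteins, whose level falls in inflammation, were counted the same way. Of 9 tested, 8 were higher in iHP (median 0.72, 0 passed). In iBEC 8 were higher (median 2.37) and 6 passed as higher, against 2.94% of all genes. The 6 calls became 0 without L1L2_Alb iHB, 1 without L1L2_Alb iBEC 2, 3 without L1L2_Alb iBEC 1, 2 without L1L2_Alb iHP 2 and iBEC 1 together and 1 with no filter on low values. Over all genes 395 passed as higher and 373 as lower in the main fit. These counts were 253 and 235 without L1L2_Alb iBEC 2, and 326 and 198 without L1L2_Alb iBEC 1. They were 412 and 599 without L1L2_Alb iHP 2 and iBEC 1 together, and 283 and 209 with no filter. *Alb* rose by 2.37 (adjusted p = 0.03) and *Ahsg*, fetuin-A, by 3.59 (adjusted p = 0.00278) in iBEC. In the single libraries the median of the positive list (all 31 genes) relative to iHB of the same genotype was 2.06 in control iHP and 1.62 and 2.22 in L1L2_Alb iHP, against 0.60, 0.50 and 0.85 for the negative list. In iBEC it was 3.46, 3.22 and 4.60 for the positive list, and 1.31, 3.39 and 2.68 for the negative list. The positive list was thus above the negative in 5 of the 6 libraries, with L1L2_Alb iBEC 1 as the exception.

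**Figure D4:**
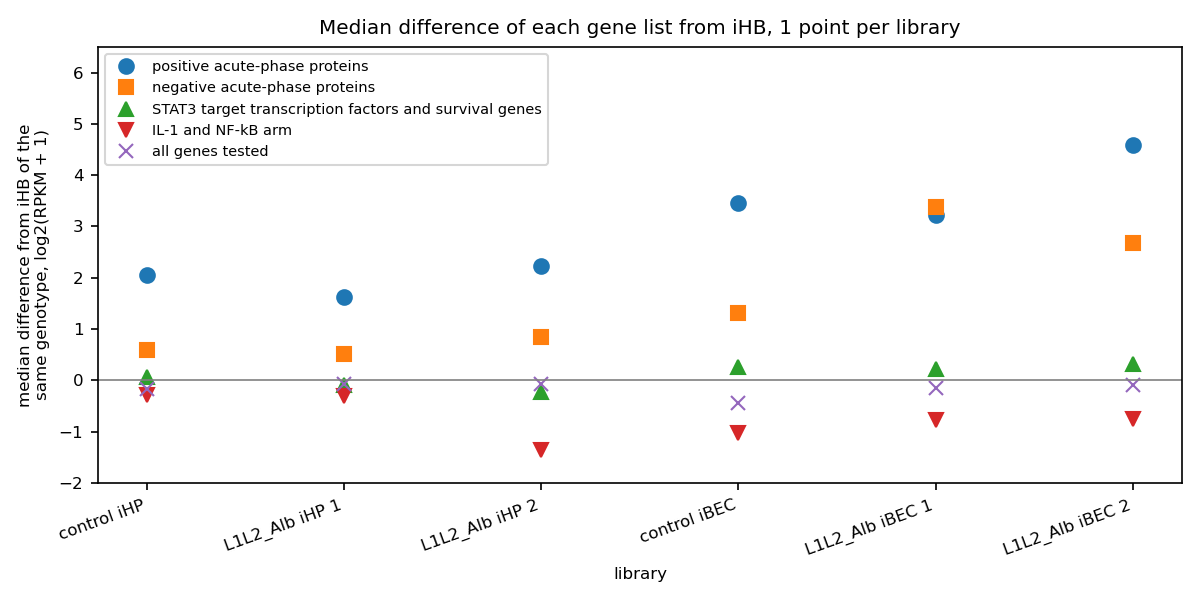
Median log2(RPKM + 1) difference of each gene list from the iHB library of the same genotype, for the 6 iHP and iBEC libraries, with all 13421 genes tested as crosses. Positive acute-phase proteins lie between 1.62 and 4.60 and all genes between -0.44 and -0.07, while the IL-1 and NF-kB list is below 0 in each of the 6 libraries.

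Between the genotypes 18 of the 25 positive acute-phase genes passed as lower in L1L2_Alb cells and 0 as higher. Over all genes 3.37% passed as lower. Of the 25, 23 were lower, with a median of -2.42 against 0.06 over all genes. The largest were *A2m* (-3.92, adjusted p = 0.000605), *Itih3* (-3.39, adjusted p = 0.00445), *Apcs* (-3.13, adjusted p = 0.00285) and *Orm2* (-3.04, adjusted p = 0.0101). Of the 9 negative acute-phase genes 8 were lower (median -1.95) and 7 passed as lower. Among those that passed was *Gc*, the vitamin D binding protein (-2.95, adjusted p = 0.00764 in limma). Those 7 calls became 1 without the iHP stage, 3 without control iHP, and 4 without L1L2_Alb iHB, without the iHB stage or with no filter. *Hnf4a*, the hepatocyte transcription factor, fell by 1.33 (adjusted p = 0.00373 in limma). Of the 8 hepatocyte markers 7 were lower and 5 passed as lower, against 3.37% of all genes. The part of hepatocyte content in these differences was not tested. With the members counted in, 29 of the 31 positive genes were lower and 20 passed as lower. The count that passed was 3 without the iHP stage, 10 without control iHP and 12 without L1L2_Alb iHB or without the iHB stage. Calls over all genes fell in these settings too. Those as lower were 19 without the iHP stage, 48 without control iHP and 98 without the iHB stage, against 452 in the main fit. Those as higher were 113, 157 and 228, against 832.

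The change with oncostatin M in each genotype was then set side by side. Relative to iHB of its own genotype, 30 of the 31 positive acute-phase genes were higher in control iHP, and 24 and 21 of 31 in L1L2_Alb iHP 1 and 2. The fitted difference of the changes was above 0 for 15 of the 31 and below 0 for 16, so medians of the list (2.06, 1.62 and 2.22) hide genes that went both ways. L1L2_Alb iHB differed from control iHB by a median of -2.31. *Fgb* was at 2030.0 and 10898 RPKM in control iHB and iHP, and at 408, 4322 and 5753 RPKM in the L1L2_Alb libraries (difference of the changes 1.18, adjusted p = 0.9998). The test of the difference of the iHP change between genotypes called 0 of 13421 genes (0%) in limma, 180 had an unadjusted p under 0.05, and every member had an adjusted p of 0.9998. The differences of the changes were 0.76 for *Socs3* (standard error 0.555), 0.89 for *Osmr* (0.631), -1.36 for *Orm1* (1.06) and -1.73 for *Lcn2* (1.06). This test has 2 residual degrees of freedom and 1 library in 3 of its 4 groups, and a p that misses the threshold does not show that the changes were alike.

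**Figure D5:**
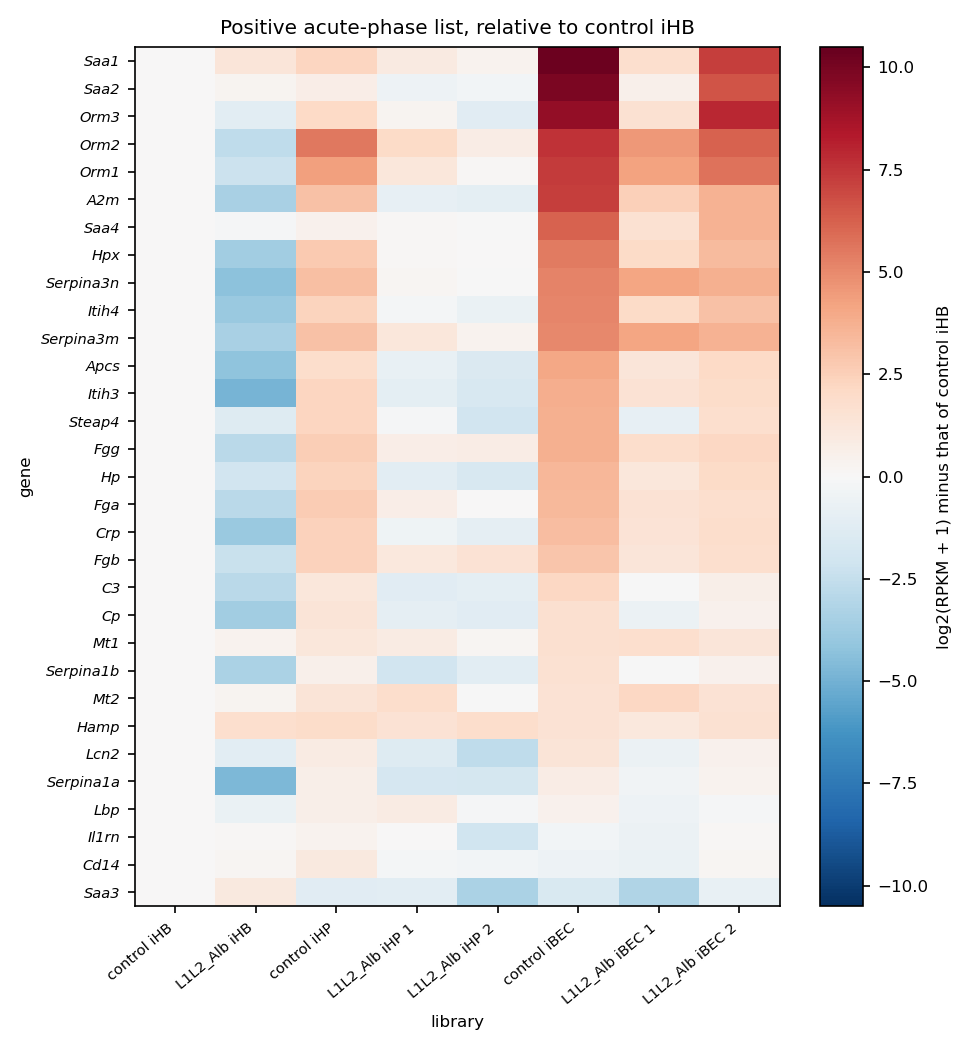
Difference of log2(RPKM + 1) from control iHB for the 31 positive acute-phase genes (rows, ordered by the control iBEC value) in the 8 libraries (columns), red for higher and blue for lower. Most rows are blue in L1L2_Alb iHB and red in control iHP and in iBEC, with the deepest red for *Saa1* and *Saa2* in control iBEC.

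The acute-phase response in hepatocytes is also driven by interleukin-1 through NF-kB, and 21 genes of that arm were tested. For iHP against iHB 17 of 21 were lower (median -0.66), and 0 passed. For iBEC against iHB 17 of 21 were lower (median -0.86) and 4 passed, against 5.72% of all genes. Those that passed were *Il1b*, which encodes interleukin-1 beta (-2.74, adjusted p = 0.0297), *Irak3* (-1.48, adjusted p = 0.0303) and *Tnfaip3* (-1.34, adjusted p = 0.0469), both inhibitors of the pathway, and *Il1r1*, the receptor, which rose by 1.09 (adjusted p = 0.0297). *Il1b* was at 6.46 and 6.22 RPKM in iHB, and in iBEC it was listed at 0 (control) and at 0.0582 and 0.158 RPKM (L1L2_Alb). *Tnfaip3* was higher in L1L2_Alb cells by 1.21 (adjusted p = 0.0248). In control iBEC, the library highest in *Saa1* and *Saa2*, the arm was mixed. *Il1r1* was at its highest there, at 36.4 RPKM, as was *Cxcl1*, a neutrophil chemokine, at 75.1 RPKM against 15.2 RPKM in control iHB (iBEC against iHB 1.99, adjusted p = 0.245).

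Across the 8 libraries, *Osmr* correlated with *Socs3* (Pearson r = 0.902) and with *Il6st* (r = 0.903), *Saa1* with *Saa2* (r = 0.991) and with *Orm1* (r = 0.816), and *Stat3* with *Lbp* (r = 0.870), whereas *Osmr* and *Lcn2* did not vary together (r = -0.012). These coefficients describe the 8 libraries, which share stage and genotype, and carry no test.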

How the data were processed

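RNA of 8 libraries was sequenced after preparation with a TruSeq kit. The submitters' processing notes name Bowtie 0.12.2 and the genome build mm8; the counting method and annotation are not given in the sources used here. Deposited values, 1 for each gene in each library, were read here as RPKM without scaling between libraries. No source names the unit, and it was taken from the whole steps in which values of short RNA genes change. Of 23471 rows, 4 rows of 2 duplicated symbols were left out. Reads per library were recovered from those steps, whole within 0.02, for 9 of the 10 genes, and were used for depth only, which limits *Saa1* and *Saa2*. Counting error is the only error they cover.

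Values were changed to log2(RPKM + 1), which understates changes of low genes. The 13421 genes that averaged 1 RPKM or more entered lmFit and a trended eBayes of limma 3.58.1 (R 4.3.3). Stage and genotype were additive terms (4 residual degrees of freedom), and the 6 conditions were used for the L1L2_Alb iBEC against iHP contrast and for the difference of changes (2 residual degrees of freedom). All p-values are two-sided and adjusted by Benjamini-Hochberg over all genes tested, with a threshold of 0.05. The procedure was tested on simulated data. Comparisons of iHP and of iBEC share the iHB libraries. In a single stage, values are set side by side without a test. The 10 members, the gene lists and the tests were chosen with earlier results of these data known. The genes named are the members and 24 genes listed by name. In each list, up to 4 genes past the threshold with the largest difference in each direction were named too. *Clcf1*, *Cxcl1*, *Alb*, *Spp1* and *Krt7* were given in detail after their values were seen. Some genes that this rule names are not reported here. Identity was computed by global alignment (Biopython 1.88). The methods give 6 days of oncostatin M where the labels give 5. Alternatives were a pseudocount of 0.1, upper-quartile scaling (percentile 75), no filter, a filter at 5 RPKM, an untrended eBayes, a replicate block, and the removal of each library or stage in turn. Leaving out L1L2_Alb iHP 2 and iBEC 1 together was added after seeing the data.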

Additional observations from a re-analysis of the deposited data

Results flagged for a closer look

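Several genes moved in opposite directions in 2 stages or 2 genotypes. For each of the following values, every library of one group lay on one side and every library of the other on the opposite side, and the difference is the second effect minus the first on the log2(RPKM + 1) scale. Between iHB and iHP, or iHB and iBEC, each genotype effect rests on 1 control library per stage and 1 L1L2_Alb iHB library.

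The genotype difference (L1L2_Alb minus control) of *Osmr* was -0.37 in iHB and 0.52 in iHP, a change of 0.89, and 0.46 in iBEC, a change of 0.83. For *Il6st* it was -0.11 in iHB and 0.34 in iBEC, a change of 0.45. For *Socs3* it was -0.11 in iHB and 0.65 in iHP, a change of 0.76, and -0.27 in iBEC, a change of -0.92 from iHP.

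For *Saa1* the genotype difference was 1.31 in iHB, -1.55 in iHP and -5.77 in iBEC, changes of -2.86 and -7.08 from iHB. For *Saa2* it was 0.29 in iHB, -1.10 in iHP and -6.26 in iBEC, changes of -1.38 and -6.55. *Saa1* and *Saa2* in iHB rest on 17 to 68 reads, and L1L2_Alb iBEC 1 and 2 differed by more than the iHB libraries did. Their differences from control iBEC were -8.48 and -3.06 for *Saa1* and -9.27 and -3.25 for *Saa2*. In limma the genotype difference across stages was -2.31 for *Saa1* (standard error 1.41, adjusted p = 0.349) and -2.60 for *Saa2* (1.48, adjusted p = 0.315), and neither passed.

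Seen as the iHP minus iHB change, *Lcn2* differed by 0.88 in control and -0.85 in L1L2_Alb cells, a change of -1.73. *Saa1* differed by 2.22 and -0.64, a change of -2.86, and *Saa2* by 0.71 and -0.67, a change of -1.38. The changes between iHB and iHP are the ones covered by the test of the difference of changes, in which each of these genes had an adjusted p of 0.9998 in limma. The changes that involve iBEC were not tested.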

How the results depend on the processing

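With no filter on low values the calls were 686 for genotype, 492 for iBEC against iHB and 0 for L1L2_Alb iBEC against iHP. Genotype calls were 326 without the iHB stage and 132 without the iHP stage. For iHP against iHB, upper-quartile scaling gave 4 calls and a mean of at least 5 RPKM gave 4. Under upper-quartile scaling the share of calls that were higher was 45.1% in place of 64.8% for genotype and 74.2% in place of 51.4% for iBEC against iHB. Leaving out 1 library at a time gave 205 (without control iHP) to 1695 calls for genotype, 0 to 55 (without control iHP) for iHP against iHB, 99 (without L1L2_Alb iHB) to 1739 (without L1L2_Alb iHP 2) for iBEC against iHB, and 0 to 488 for L1L2_Alb iBEC against iHP. The test of the difference of changes gave 0 calls under all alternatives that could be fitted.

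Reversals of members were all of differences that had not passed the test. Under upper-quartile scaling the genotype difference of *Il6st* was -0.061 and of *Socs3* -0.047, and L1L2_Alb iBEC against iHP was 0.050 for *Stat3* and 0.029 for *Socs3*. Without the iHP stage the genotype difference was -0.20 for *Socs3* and 0.21 for *Saa3*, and without the iBEC stage -0.053 for *Il6st*. With L1L2_Alb iHP 2 and iBEC 1 both left out it was -0.037 for *Il6st* and 0.64 for *Saa3*, and iHP against iHB was 0.34 for *Lcn2* and -0.034 for *Saa2*. Leaving out 1 library gave genotype differences of -0.053 to 0.17 for *Il6st*, -0.20 to 0.32 for *Socs3* and -0.71 to 0.21 for *Saa3*, and for iHP against iHB -0.76 to 0.40 for *Lcn2*, -1.34 to 3.63 for *Saa1* and -1.53 to 2.44 for *Saa2*. For L1L2_Alb iBEC against iHP it gave -0.063 to 0.58 for *Osmr*, -0.15 to 0.38 for *Il6st*, -0.33 to 0.22 for *Stat3*, -0.25 to 0.10 for *Socs3* and -1.001 to 1.45 for *Saa3*, and for the difference of changes -0.13 to 0.41 for *Stat3* and -0.081 to 0.97 for *Lbp*. The cause was not tested.

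The replicate numbers did not pair the libraries (correlation of deviations -0.02, 2 pairs). With the replicate block, L1L2_Alb iBEC against iHP gave 904 calls, and *Saa1* (adjusted p = 0.0362) and *Saa2* (adjusted p = 0.0301) passed.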

Other observations

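Among 9728 other genes that averaged 5 RPKM or more, those whose level on the log2(RPKM + 1) scale followed *Osmr* most closely over the 8 libraries were *Galnt6* (Pearson r = 0.962), *Prorsd1* (r = 0.940) and *Car12* (r = 0.936). Those nearest to *Socs3* were *Il33* (r = 0.951), *Serpinb2* (r = 0.936) and *Fam83a* (r = 0.934). *Nr1h3* (r = 0.989) and *Atf5* (r = 0.971) were among the nearest to *Lcn2*, and *Lrrc14* (r = 0.984), *Atp6v0a2* (r = 0.976) and *Map3k11* (r = 0.971) were the nearest to *Saa3*. These are the highest of many coefficients over 8 libraries and carry no test.

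Of the 7 hepatocyte maturation genes tested, 6 were higher for iHP against iHB (median 0.57, 0 passed). Between the genotypes 6 of the 7 were lower in L1L2_Alb cells (median -1.19), and 2 passed as lower, against 3.37% of all genes. The list holds *Tat*, the amino acid catabolic enzyme used as a late marker of oncostatin M maturation. In iHP *Tat* held 7.05 RPKM (control) against 0.137 and 0.079 RPKM (L1L2_Alb). In iBEC it held 25.7 RPKM (control) against 68.7 and 19.4 RPKM (L1L2_Alb). It rose by 4.64 for iBEC against iHB (adjusted p = 0.0127 from limma). *G6pc*, the last enzyme of glucose output, had a genotype difference of -2.497 (adjusted p = 0.0202). *Tat* in L1L2_Alb iBEC 1, the library with *Saa1* at 5.92 RPKM, was the highest of the 8 libraries.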
